A study of Mus musculus with 36 samples.

Results

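The miR-290 cluster, whose hairpins run from Mir290a to Mir295, is a group of microRNA (miRNA) genes that lie side by side on mouse chromosome 7. The members described here are 8 mature miRNAs, mmu-miR-290a-5p, mmu-miR-291a-3p, mmu-miR-291a-5p, mmu-miR-292a-3p, mmu-miR-292a-5p, mmu-miR-293-3p, mmu-miR-294-3p and mmu-miR-295-3p, written below without the species prefix. They were taken by name from a read count table of 1915 mature miRNAs, and each had 1 row. The table came from small RNA sequencing of whole mouse kidneys in 36 libraries, 3 in each of 12 groups. All animals were on a C57BL/6 background, and kidneys were taken at postnatal day 1, 3 or 7 (P1, P3 and P7). In the Pkd1 model both alleles carried loxP sites around exons 2 to 5 of Pkd1 (Pkd1f/f), and in the Pkd2 model around exons 3 and 4 of Pkd2 (Pkd2f/f), the genes mutated in autosomal dominant polycystic kidney disease. Floxed animals without Cre are called WT, and floxed animals with HoxB7-Cre, which deletes the gene in the collecting duct, are called KO. WT and KO animals therefore both carried the floxed alleles, and only the collecting duct, a part of the whole kidney sampled, lost the gene in KO. The labels do not say whether the 3 libraries of a group came from separate animals, so p-values measure the spread between these libraries.

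The cluster is known from mouse embryonic stem cells and the early embryo, where its miRNAs are among the most abundant and shorten the passage into the next round of cell division. A miRNA finds its target messenger RNAs mainly through its seed, the bases near its 5′ end, and several members of the cluster share a seed with the miR-302 family of pluripotent cells. The miR-17 family, which carries almost the same seed moved by a base, is by contrast made in many dividing tissues, the developing kidney among them. In later life the cluster is known mainly from germ cells.

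On GRCm38 the 9 annotated hairpins of the cluster span 2216 bases, chr7:3218626-3220841. The members come from 6 of them on the plus strand, Mir290a, Mir291a, Mir292, Mir293, Mir294 and Mir295. In GENCODE M21 the last exon of Nlrp12, a gene read from the minus strand, runs from 3218784 to 3222560, and its stop codon lies at 3222473 to 3222475. Hence 7 of the 9 hairpins, those from Mir291a to Mir295, lie within the 3′ untranslated part of that exon. Of these, 6 are on the opposite strand and 1, Mir292b, is on the strand of Nlrp12, whereas Mir290a and Mir290b lie outside the exon. Mature sequences of 7 of the 8 members were matched in RefSeq (GRCm38.p6), all but miR-292a-3p. They are shown 5′ to 3′ because the members fall into groups by seed (bases 2 to 8, in capitals), beginning with the seed AAGUGCU.

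miR-295-3p: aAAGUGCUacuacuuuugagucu
miR-294-3p: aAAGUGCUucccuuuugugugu
miR-291a-3p: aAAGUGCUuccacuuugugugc
miR-302b-3p: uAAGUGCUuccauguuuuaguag
miR-302d-3p: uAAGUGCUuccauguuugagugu
miR-290a-5p: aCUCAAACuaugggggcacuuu
miR-292a-5p: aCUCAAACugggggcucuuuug
miR-291a-5p: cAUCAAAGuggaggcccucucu
miR-293-3p: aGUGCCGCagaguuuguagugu
miR-17-5p: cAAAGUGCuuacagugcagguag

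Among the 1679 mature mouse miRNAs with a sequence in this table, which miR-292a-3p and miR-302a-3p were not, the seed AAGUGCU was found in 5 (0.298%), namely miR-291a-3p, miR-294-3p and miR-295-3p of the cluster and miR-302b-3p and miR-302d-3p. The seed CUCAAAC was shared by miR-290a-5p, miR-292a-5p and miR-293-5p, another arm of the same cluster. miR-291a-5p shared its seed with miR-291b-5p, and miR-293-3p had a seed of its own. In miR-17-5p the letters AAGUGC begin at base 3 rather than base 2. miR-291a-3p and miR-294-3p had the same base at 19 of 22 positions, miR-291a-3p and miR-295-3p at 15, and miR-294-3p and miR-295-3p at 12. Among these pairs, the division of reads between miR-291a-3p and miR-294-3p may be the least certain. miR-291a-5p and miR-291b-5p, which is not a member, differed only at the first and last base. How reads were divided was not tested.

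Each library held between 12569939 and 32663566 reads (median 24008082). Of these 819341141 reads, 2218 belonged to the 8 members, from 0 to 279 in a library with a median of 49. By comparison the 6 miRNAs of the miR-17 family that were followed (miR-17-5p, miR-20a-5p, miR-20b-5p, miR-93-5p, miR-106a-5p and miR-106b-5p) had 2900880 reads. Levels are given in CPM, the reads of a miRNA in every 1000000 reads after each library total was multiplied by its TMM factor. These factors were 0.395 to 2.41, and they correct for miRNAs that crowd out others. The miR-10 pair, miR-10a-5p with miR-10b-5p, alone took 31.4% to 81.0% of a library. A count of 3 reads, the limit that a count of 0 allows, was 0.0593 to 0.471 CPM depending on the library. Intervals and limits cover counting error only.

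Reads of the cluster were mainly those of miR-295-3p. It had 1174 reads over all libraries, 52.9% of the reads of the members (95% exact binomial interval 50.8% to 55.0%), and ranked 515 among 1590 mature miRNAs with any read. miR-292a-3p followed with 278 reads (12.5%), miR-292a-5p with 253 (11.4%) and miR-294-3p with 193 (8.70%). miR-293-3p had 118 reads, miR-291a-3p 117, miR-291a-5p 79 and miR-290a-5p 6. Thus the counts of miR-293-3p and miR-291a-3p could not be ordered, and miR-290a-5p, with at most 2 reads in any library, was close to the limit of detection. In the 25 libraries with 20 or more member reads, the share of miR-295-3p was 42.1% to 64.6%, with a median of 50.7%. By age it was 54.3%, 59.8% and 58.8% at P1, P3 and P7 for Pkd1 and 48.1%, 52.4% and 52.5% for Pkd2, and within each model the intervals of the ages overlapped.

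**Figure D1:**
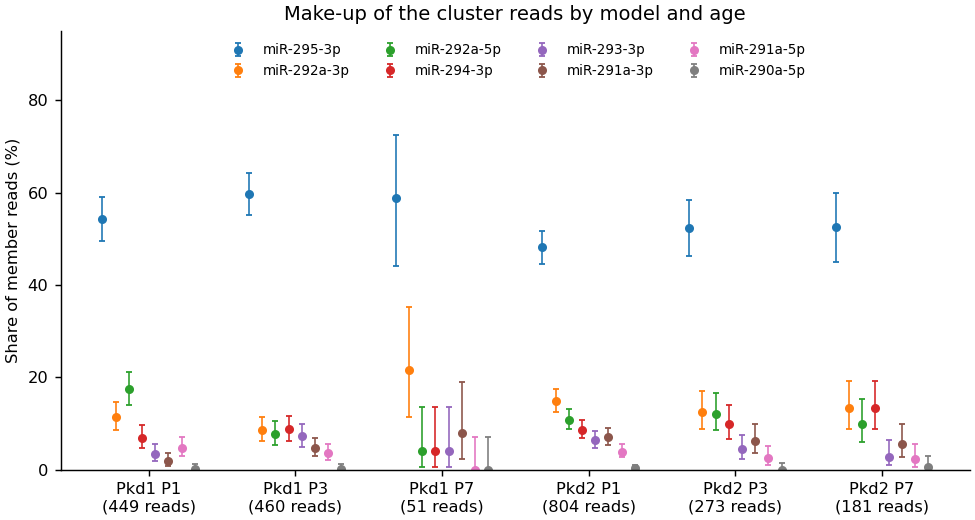
Share of the member reads (percent, vertical axis) taken by each of the 8 miRNAs, for each model and age with the number of reads under each label. Points are shares over 6 libraries and bars are 95% exact binomial intervals. miR-295-3p leads in all 6 panels of points, at 48.1% to 59.8%, and no other member passes 21.6%.

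Exceeding 10 reads was the exception. Of the 288 pairs of a member and a library, 58 (20.1%) exceeded 10 reads. miR-295-3p did so in 25 libraries. These were all 12 libraries at P1, 9 of 12 at P3 (all but Pkd1 WT replicate 2, Pkd2 WT replicate 2 and Pkd2 KO replicate 3) and 4 of 12 at P7 (Pkd1 WT replicate 3, Pkd2 WT replicate 1, and Pkd2 KO replicates 1 and 3). In the other 11 libraries no member exceeded 10 reads, and in 12 of the 25 miR-295-3p was the single one.

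miR-292a-5p exceeded 10 reads in 11 libraries. In the Pkd1 model these were P1 WT replicates 1 and 3, P1 KO replicates 1 and 2 and P3 KO replicate 3. In the Pkd2 model they were P1 WT replicates 1 and 3, all 3 P1 KO libraries and P3 KO replicate 2. miR-292a-3p, the other arm of the same hairpin, did so in 8 libraries, namely Pkd1 P1 WT replicates 1 and 3, Pkd1 P3 KO replicate 3, all 3 Pkd2 P1 KO libraries, Pkd2 P3 KO replicate 2 and Pkd2 P7 KO replicate 3. Both arms were therefore over 10 reads mostly at P1.

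miR-294-3p exceeded 10 reads in 6 libraries, Pkd1 P3 KO replicate 3, Pkd2 P1 WT replicate 3, all 3 Pkd2 P1 KO libraries and Pkd2 P7 KO replicate 1. miR-291a-3p did so in Pkd1 P3 KO replicate 3 and Pkd2 P1 KO replicates 1 and 3, and miR-293-3p in Pkd1 P3 KO replicate 3, Pkd2 P1 WT replicate 3 and Pkd2 P1 KO replicate 1. miR-291a-5p did so in Pkd1 P3 KO replicate 3 and Pkd2 P1 KO replicate 1, and miR-290a-5p in none. Only these last 2 libraries had 7 members over 10 reads. With 271 and 279 member reads they held 24.8% of all reads of the cluster.

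**Figure D2:**
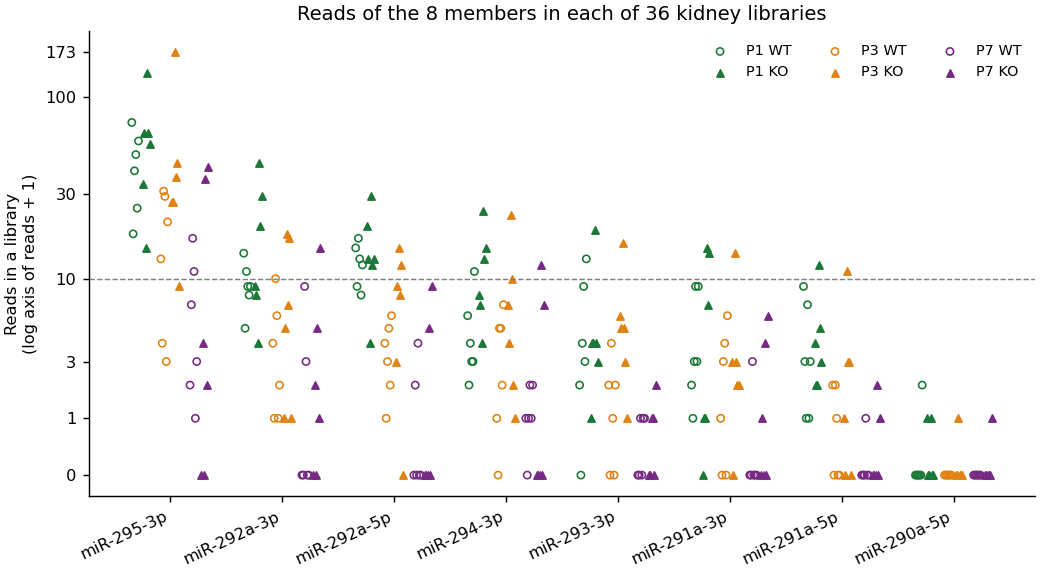
Reads of each member (horizontal axis) in each of the 36 libraries, on a log axis of reads + 1, with a dashed line at 10 reads. Colour marks the age, open circles are WT and filled triangles KO, and each point is 1 library. miR-295-3p exceeds 10 reads in 25 libraries, and miR-290a-5p in none.

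Other rows of the cluster were rarer still. Of 10 mature miRNAs from these hairpins that are not among the members, 3 (miR-290a-3p, miR-290b-3p and miR-290b-5p) had no read in any library, which allows at most 3 reads each. miR-293-5p, the opposite arm of miR-293-3p, had 145 reads and miR-291b-3p had 85, and the rest had 10 or fewer. The 10 arms of the miR-302 cluster, which accompanies the miR-290 cluster in pluripotent cells, had 31 reads over all 36 libraries, at most 3 of any arm in a library, and 4 of the 10 were at 0. The 2 clusters therefore differed in abundance although miR-302b-3p and miR-302d-3p carry the seed AAGUGCU.

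Across the 12 groups, the summed level of the 8 members was highest in Pkd1 WT at P1, at 5.22 ± 1.06 CPM (mean ± SD, n = 3, as for each group here), and lowest in Pkd1 KO at P7, at 0.193 ± 0.251 CPM. The order between them was Pkd1 KO at P3 (5.13 ± 3.53 CPM), Pkd2 KO at P1 (4.62 ± 1.99), Pkd1 KO at P1 (3.20 ± 1.68), Pkd2 WT at P1 (2.16 ± 0.820), Pkd2 KO at P3 (1.76 ± 1.32), Pkd2 KO at P7 (1.67 ± 1.36), Pkd2 WT at P3 (1.54 ± 1.59), Pkd1 WT at P7 (1.24 ± 0.764), Pkd1 WT at P3 (0.878 ± 0.509) and Pkd2 WT at P7 (0.559 ± 0.665). At each of the 11 steps of this order the gap was smaller than the larger of the 2 SDs, so no neighbouring groups could be told apart by their spread. The order also depended on the scaling. In reads per 1000000 of the library total, an alternative chosen after the data were seen, Pkd2 KO at P1 was highest at 8.31 ± 2.62, Pkd1 KO at P3 came next at 5.37 ± 4.22 and Pkd1 WT at P1 was in place 3 at 3.98 ± 0.927, while Pkd1 KO at P7 stayed lowest at 0.112 ± 0.154.

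**Figure D3:**
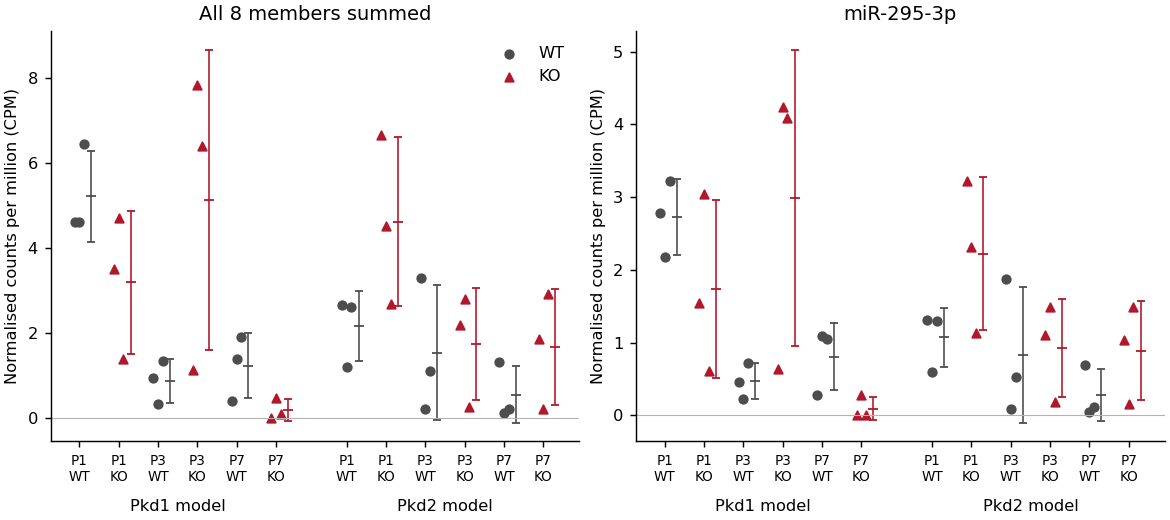
Normalised CPM (vertical axis) of the 8 members summed (left) and of miR-295-3p (right) in each library, by model, age and genotype. Points are libraries, and the bar beside them is the mean ± SD of 3 libraries. Summed levels run from 0.193 CPM in Pkd1 KO at P7 to 5.22 CPM in Pkd1 WT at P1, with the widest spread in Pkd1 KO at P3. With library totals in place of TMM the highest group was Pkd2 KO at P1.

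The comparison of P7 with P1 asked how the cluster behaves as the kidney matures after birth. The members gave 1253 reads at P1, 733 at P3 and 232 at P7, that is 56.5%, 33.0% and 10.5% of their reads. In the Pkd1 model miR-295-3p and miR-292a-5p fell from P1 to P7, and the members tested in the Pkd2 model had values in the same direction that did not pass the threshold. In bulk kidney, fewer cells of a type and less RNA per cell cannot be told apart.

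In Pkd1 kidneys miR-295-3p had 73, 18 and 40 reads in the P1 WT libraries and 34, 64 and 15 in P1 KO. At P7 it had 2, 7 and 17 reads in WT and 0, 4 and 0 in KO. The levels were 2.23 ± 1.00 CPM at P1 (n = 6) and 0.447 ± 0.496 CPM at P7 (n = 6), and 4 of the 6 P7 libraries lay below every P1 library. Over both genotypes the log2 fold change was -2.69 (SE 0.64, adjusted p = 0.00484, edgeR quasi-likelihood test with Benjamini-Hochberg adjustment over all miRNAs tested).

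miR-292a-5p had 15, 9 and 17 reads in P1 WT and 20, 13 and 4 in P1 KO of the Pkd1 model. At P7 it had 0, 0 and 2 reads in WT and none in KO, so 5 of the 6 P7 libraries lay below every P1 library. The lowest P1 level, 0.163 CPM, was itself below the P7 limit of 3 reads, 0.186 to 0.465 CPM. The fitted log2 fold change was -5.04 (SE 1.23, adjusted p = 0.00722, edgeR), a value that depends on how counts of 0 are treated. From the 78 reads at P1 and 2 at P7, the ratio of P1 to P7 was 20.8 (95% counting interval 5.57 to 175). For miR-295-3p the same ratio, from 244 and 30 reads, was 4.34 (2.96 to 6.57).

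Hence 2 of the 3 members that passed the filter of 10 reads in 3 libraries fell in the Pkd1 model, against 18.7% of all 706 miRNAs tested that were called lower and 36.4% called in either direction. The third was miR-292a-3p, at -1.73 (adjusted p = 0.111, edgeR). The median log2 fold change of the 3 was -2.69, against -0.03 for all miRNAs tested. With 3 members tested, the count is a small one. Of the 3, only miR-295-3p reached 10 reads at P7, with 17 in WT replicate 3. The filter was thus passed by miR-292a-5p and miR-292a-3p through P1 and P3 libraries alone. It favoured members high at those ages, so the count and the median are not independent of the fall. Both calls were made under each alternative setting and without any 1 library, with log2 fold changes of -2.36 to -4.88 for miR-295-3p when a library was left out. Its value was -4.88 without P7 KO replicate 2, the single P7 KO library that held any read of it. Among WT libraries alone, miR-292a-5p was at -3.60 on the log2 scale (SE 1.32, adjusted p = 0.0663, edgeR) and miR-295-3p at -1.66 (SE 0.77, adjusted p = 0.133, edgeR), and none of the 3 was called, against 21.5% of all miRNAs. An unadjusted p under 0.05 was found for 2 of the 3, against 36.3% of all miRNAs, and DESeq2 called 1.

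In the Pkd2 model miR-295-3p had 49, 25 and 58 reads in P1 WT and 135, 64 and 56 in P1 KO. At P7 it had 11, 1 and 3 reads in WT and 36, 2 and 42 in KO. P7 KO replicates 1 and 3, at 1.03 and 1.48 CPM, lay within the P1 range of 0.596 to 3.22, and 3 of the 6 P7 libraries lay below every P1 library. The log2 fold change over both genotypes was -1.72 (SE 0.68, adjusted p = 0.0518, edgeR), just short of the threshold of 0.05.

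miR-292a-3p had 9, 8 and 9 reads in P1 WT and 44, 20 and 29 in P1 KO of the Pkd2 model, and at P7 it had 3, 0 and 0 in WT and 5, 1 and 15 in KO. Its log2 fold change was -1.87 (SE 0.77, adjusted p = 0.0604, edgeR). For miR-292a-5p it was -1.75 (SE 0.76, adjusted p = 0.0752, edgeR), and for miR-294-3p -0.93 (adjusted p = 0.241). With edgeR none of the 4 members tested was called, against 43.8% of 746 miRNAs, whereas 3 of the 4 had an unadjusted p under 0.05 (51.7% of all miRNAs had) and DESeq2 called 1. The median of the 4 was -1.74, against -0.08 for all miRNAs tested. As miR-292a-5p had at most 9 reads at P7, it passed the filter through P1 and P3 libraries alone, and this median is not independent of the filter. In WT alone no member was called with edgeR, against 28.3% of miRNAs, or with DESeq2, none had an unadjusted p under 0.05 (39.8% of all miRNAs had), and the 4 values ran from -2.17 to -0.87. The count in the Pkd2 model changed with P7 WT replicate 1, the P7 WT library with the most member reads, without which 3 members were called. Without P7 KO replicate 3 it was 2, and without P1 KO replicate 3 it was 1.

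Members below the filter were described by their reads. In the Pkd1 model miR-291a-5p went from 21 reads at P1 to 0 at P7. Its ratio of P1 to P7 was 3.74 when the 0 is set to 3 reads over the group. The lower 95% counting limit from 21 and 0 reads was 2.78. miR-294-3p went from 31 to 2 reads (ratio of P1 to P7 8.27, 95% counting interval 2.10 to 71.3). In both cases all 6 P7 libraries lay below every P1 library, which held for none of the 3 members tested and for 7.93% of all miRNAs tested. Their lowest P1 levels, 0.0805 and 0.163 CPM, were below the P7 limit of 3 reads, 0.186 to 0.465 CPM, so this separation was not resolved. The 7.93% covers only miRNAs that passed the filter. miR-293-3p had 15 reads at P1 and 2 at P7, and miR-291a-3p had 8 and 4, with an interval of its ratio from 0.286 to 4.84. In the Pkd2 model miR-293-3p went from 51 to 5 reads, miR-291a-3p from 57 to 10 and miR-291a-5p from 31 to 4.

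The P7 libraries of the Pkd1 model also differed in composition. Their TMM factors were 0.395 to 0.743 and the miR-10 pair took 57.9% to 81.0% of their reads, against 0.634 to 1.10 and 57.3% to 75.1% at P1, so that 1 read weighed more CPM at P7. With library totals in place of TMM, the P1 to P7 ratio of the summed members was larger, 8.37 (6.26 to 11.4) instead of 4.70 (3.51 to 6.41) in the Pkd1 model and 4.80 (4.08 to 5.67) instead of 2.61 (2.22 to 3.08) in the Pkd2 model.

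The related miRNAs were compared over the same ages. miR-293-5p, the only other arm of the cluster to pass the filter in the Pkd1 model, fell from P1 to P7 (log2 fold change -2.65, SE 0.98, adjusted p = 0.0454, edgeR). At P7 of that model it had 1 read in WT and 2 in KO. It too passed the filter through P1 and P3 libraries alone, so this call is not independent of the filter. In the miR-17 family 1 of 6 fell in Pkd1 kidneys, miR-17-5p (log2 fold change -0.47, SE 0.11, adjusted p = 0.00582, edgeR), where 18.7% of all miRNAs were called lower, and 2 of 6 fell in Pkd2 kidneys, miR-17-5p at -0.65 and miR-20a-5p at -0.71 (adjusted p = 0.000719 and 0.00799, edgeR), where 25.1% were. The family medians were -0.12 and -0.21, smaller than the member medians of -2.69 and -1.74. The 6 of the family exceeded 10 reads in all 36 libraries, whereas the member medians are not independent of the filter. The medians are therefore not compared on equal terms. The kidney miRNAs taken as markers of the tissue were present in all 36 libraries, and from P1 to P7, 5 of 8 rose in Pkd1 kidneys and 8 of 8 in Pkd2 kidneys, against 17.7% and 18.8% of all miRNAs called higher. These were miR-192-5p, miR-194-5p, miR-204-5p, miR-30a-5p, miR-200b-3p, miR-200c-3p and the miR-10 pair. Their median log2 fold changes were 0.76 and 0.98 with TMM. Library totals lowered the median of all miRNAs, as given below, and this list was not recomputed with them.

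Some markers of other tissues fell over the same ages. In Pkd1 kidneys miR-124-3p, a miRNA of neurons, fell (log2 fold change -3.67, adjusted p = 0.0253, edgeR), the single one of the 4 neural and endocrine miRNAs to do so. The 3 skeletal muscle miRNAs were at -3.72 to -1.51 without passing the threshold (adjusted p of 0.0553 to 0.132), and in WT alone all 3 fell, with log2 fold changes of -7.81 to -3.36 (adjusted p of 0.0141 to 0.0437, edgeR), against 11.2% of all miRNAs called lower there. Pkd1 P1 WT replicate 1 held 1525 CPM of these muscle miRNAs, against 17.7 and 53.2 CPM in the other P1 WT libraries. In Pkd2 kidneys miR-122-5p, the main miRNA of liver, fell (log2 fold change -4.03, adjusted p = 0.0037, edgeR), as did miR-206-3p, 1 of the 3 muscle miRNAs (-2.71, adjusted p = 0.0338). Pkd2 P1 WT replicate 3 held 274 CPM of miR-122-5p, against 9.04 and 10.6 CPM in the other P1 WT libraries and 20.4 to 41.6 CPM in P1 KO. None of the germ cell and gonad miRNAs tested, 3 for Pkd1 and 2 for Pkd2, was called, and 1 red cell miRNA (miR-144-3p, Pkd1) and 1 neural one (miR-9-5p, Pkd2) rose. Their part in the fall of the members was not tested.

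**Figure D4:**
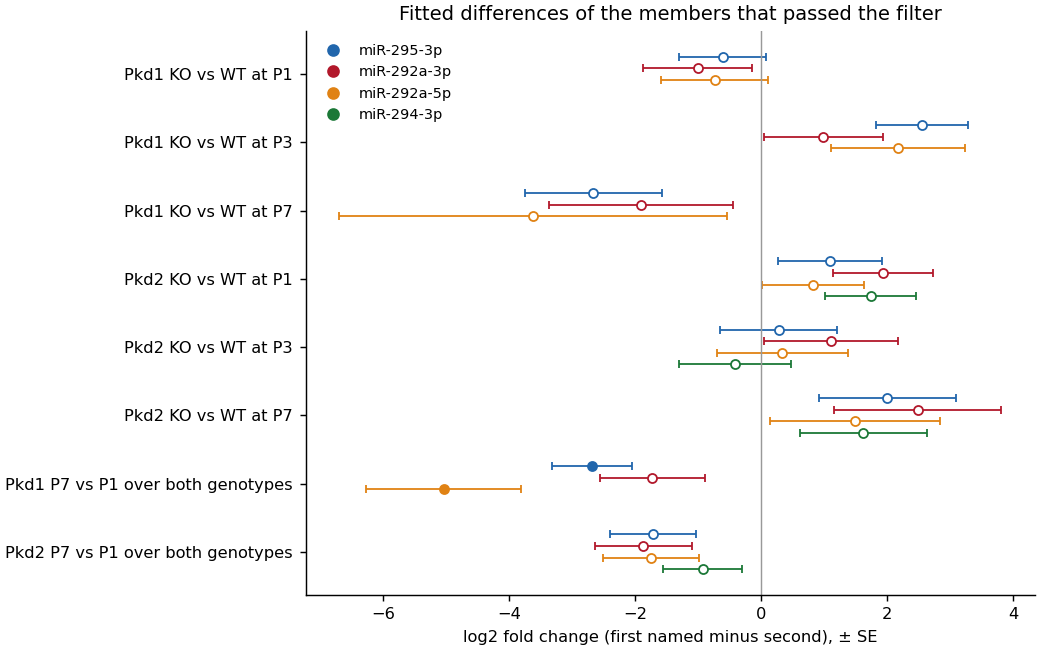
Log2 fold change ± SE (horizontal axis) from the edgeR fit of each model for the members that passed the filter, 3 for Pkd1 and 4 for Pkd2. Filled points had an adjusted p under 0.05, which holds for miR-295-3p (-2.69) and miR-292a-5p (-5.04) from P1 to P7 in the Pkd1 model, and open points did not.

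The comparison of KO with WT asked whether loss of Pkd1 or Pkd2 from the collecting duct was accompanied by a change in the cluster. No member was called at any age in either model with edgeR, nor with DESeq2. The share of all miRNAs called with loss of Pkd1 was 0% at P1, 0% at P3 and 0.425% at P7, and with loss of Pkd2 it was 0%, 0% and 12.6%. Unadjusted p-values were under 0.05 for 0, 1 and 1 of the 3 members tested at P1, P3 and P7 of the Pkd1 series, against 8.36%, 9.07% and 10.2% of all miRNAs. They were for 2, 0 and 0 of the 4 members tested in the Pkd2 series, against 5.5%, 1.47% and 29%. The 2 at P1, miR-292a-3p and miR-294-3p, passed the filter through KO libraries, where they were higher.

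Groups of 3 KO and 3 WT libraries that did not overlap were also counted. This held for 1, 0 and 1 of the 3 members tested at P1, P3 and P7 for Pkd1, against 18.1%, 12.3% and 16.4% of all miRNAs tested, and for 2, 0 and 0 of the 4 for Pkd2, against 13.4%, 4.42% and 25.6%. Those at Pkd1 P1 were miR-292a-3p and, among the members too rare to test, miR-291a-3p, both lower in KO. At Pkd1 P3 they were miR-293-3p and miR-294-3p, too rare to test and higher in KO, at Pkd1 P7 miR-295-3p, lower in KO, and at Pkd2 P1 miR-292a-3p, miR-294-3p and the untested miR-291a-3p, all higher in KO. The lowest KO levels at Pkd1 P3, 0.142 and 0.166 CPM, were below the limit of 3 reads in WT replicate 2, 0.167 CPM. For miR-291a-3p at Pkd1 P1 the lowest WT level, 0.0761 CPM, was below that limit in KO replicate 1, 0.137 CPM. These 3 separations were thus not resolved, and the shares cover only miRNAs that passed the filter. In the Pkd2 model miR-292a-3p reached 10 reads in no WT library and miR-294-3p in 1. Both passed the filter through KO libraries, so the 2 of 4 at P1 is not independent of it. At Pkd1 P1 miR-292a-3p reached 10 reads in WT libraries alone.

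At P3 of the Pkd1 model, miR-295-3p had 13, 4 and 31 reads in WT and 27, 27 and 173 in KO, or 0.467 ± 0.247 and 2.99 ± 2.03 CPM. KO replicates 2 and 3 were at 4.23 and 4.09 CPM, while KO replicate 1, at 0.641 CPM, lay within the WT range of 0.222 to 0.717. The log2 fold change was 2.55 (SE 0.74, adjusted p = 0.341, edgeR). Without KO replicate 1 it was 3.05 with an adjusted p of 0.0449, and without KO replicate 3 it was 2.13 with an adjusted p of 0.891.

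KO replicates 2 and 3, the libraries high in miR-295-3p, also held more of several markers of other tissues than WT, and KO replicate 1 did not for the germ cell or the neural list. Of the 10 miRNAs listed for germ cells and gonad, 4 (miR-741-3p, miR-743a-3p, miR-880-3p and miR-463-3p) were at 0 in the 3 KO libraries, and the summed level was 0.997, 16.9 and 27.9 CPM there against 1.22 to 1.41 CPM in WT. In KO replicates 2 and 3 nearly all of it was miR-202-5p, a miRNA known from the gonads. This miRNA had 1141 reads in KO replicate 3, 102 in KO replicate 2, 2 in KO replicate 1 and none in WT. The other 2 miRNAs of that list that were tested had log2 fold changes of -0.57 (miR-871-3p) and -0.40 (miR-470-5p). The neural and endocrine list of 4 miRNAs, none of them at 0, summed to 228 to 707 CPM in KO and 255 to 315 CPM in WT, and miR-375-3p of that list had its highest read count of all libraries, 19852, in KO replicate 3. The red cell list of 3, none at 0, summed to 1573 to 4685 CPM in KO and 1386 to 1546 in WT. The 3 skeletal muscle miRNAs had log2 fold changes of 1.02 to 2.51 and miR-122-5p of liver 1.39. None of these markers was called, and their part in the level of miR-295-3p was not tested.

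At P7 of the Pkd1 model the sign was the opposite. miR-295-3p, with 2, 7 and 17 reads in WT and 0, 4 and 0 in KO, was at 0.804 ± 0.458 and 0.0909 ± 0.157 CPM, and all 3 KO libraries lay below all 3 WT libraries, the nearest at 0.273 against 0.275 CPM. The log2 fold change was -2.67 (SE 1.09, adjusted p = 0.415, edgeR). The counts were small, and the limit of 3 reads in these libraries was 0.186 to 0.465 CPM, in the range of the difference. miR-202-5p had 0, 50 and 52 reads in WT and 1, 2 and 1 in KO (log2 fold change -4.68, adjusted p = 0.567, edgeR). The germ cell and gonad list, with 5 of 10 miRNAs at 0 in KO and 4 in WT, summed to 0.954 to 1.18 CPM in KO and 2.88 to 9.14 in WT, and all 3 of its miRNAs tested were below 0. The muscle, liver, red cell and neural lists overlapped between the groups, and the part of any of them was not tested. At P1 the 3 members tested had log2 fold changes of -1.01 to -0.62 with adjusted p of 0.661 to 0.709.

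In the Pkd2 model at P1, miR-292a-3p had 9, 8 and 9 reads in WT and 44, 20 and 29 in KO, and the KO libraries, at 0.585 to 1.05 CPM, were all above the WT range of 0.191 to 0.242. The log2 fold change was 1.93 (SE 0.79, adjusted p = 0.886, edgeR). miR-294-3p had 3, 3 and 11 reads in WT and 24, 13 and 15 in KO, again without overlap, and differed by 1.74 on the log2 scale (SE 0.72, adjusted p = 0.886, edgeR). miR-295-3p, in contrast, overlapped between WT (0.596 to 1.32 CPM) and KO (1.13 to 3.22), with 1.09 (adjusted p = 0.972).

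KO replicate 1 of that group, the library with 279 member reads, also held 155 reads of miR-202-5p. The germ cell and gonad list, with 2 of 10 miRNAs at 0 in KO and 4 in WT, summed to 0.787 to 5.47 CPM in KO and 0.591 to 0.961 CPM in WT. The 3 skeletal muscle miRNAs had log2 fold changes of 0.51 to 2.16, miR-122-5p -1.54 and the 3 red cell miRNAs -0.14 to 0.98, none of them called, and the part of these lists was not tested. At P3 the 4 members had log2 fold changes of -0.42 to 1.10 and at P7 of 1.49 to 2.48, with adjusted p of 0.242 or more.

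**Figure D5:**
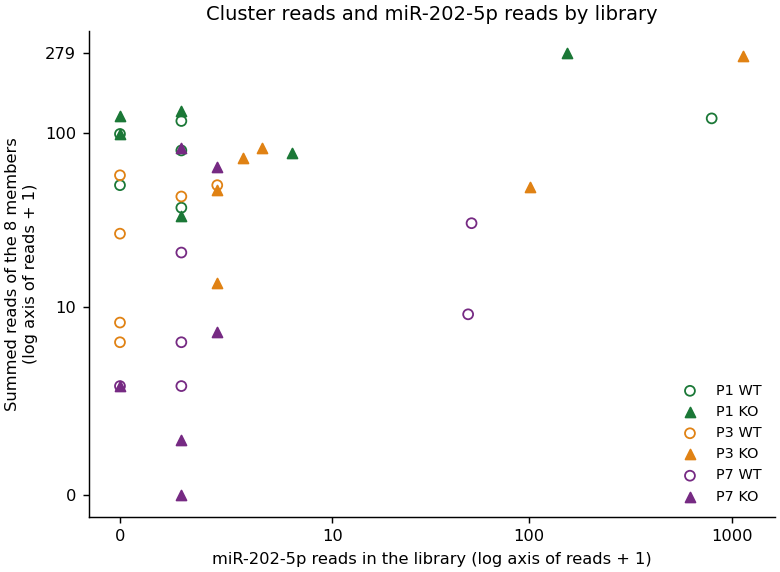
Summed reads of the 8 members (vertical axis) against reads of miR-202-5p (horizontal axis) in each of the 36 libraries, both on log axes of reads + 1. Colour marks the age, open circles are WT and filled triangles KO. The 2 libraries with the most member reads, 271 and 279, had 1141 and 155 reads of miR-202-5p, while P1 libraries with 0 or 1 read of it still held up to 133 member reads.

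miR-202-5p did not track the cluster throughout. It exceeded 10 reads in 6 libraries, and Pkd1 P1 WT replicate 1 had 797 reads of it with 121 member reads. Outside that library, Pkd1 P3 KO replicate 3 and Pkd2 P1 KO replicate 1, it had a median of 1 read in 33 libraries and none in 10.

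Differences of the KO effect were tested directly. Between P7 and P1 no member was called in either model with edgeR or DESeq2, against 0.142% of all miRNAs called for Pkd1 and 0.536% for Pkd2. None had an unadjusted p under 0.05, against 12% and 16.9% of all miRNAs. Between the models, 6 members passed the filter of the fit over all 36 libraries, and none was called at P1 (0% of 775 miRNAs called), P3 (0%) or P7 (0.387%) with edgeR or DESeq2. Unadjusted p-values were under 0.05 for 1, 1 and 3 of the 6, against 6.32%, 5.03% and 12% of all miRNAs. Of these members, miR-291a-3p passed the filter through KO libraries alone.

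At P1 the KO effect on miR-292a-3p was higher in the Pkd2 than in the Pkd1 model by 2.95 on the log2 scale (SE 1.26, adjusted p = 0.685, edgeR). At P3 that on miR-294-3p differed by -2.98 (SE 1.20, adjusted p = 0.853). At P7 the differences were 4.62 for miR-295-3p (SE 1.72, adjusted p = 0.328), 4.39 for miR-292a-3p (SE 2.11, adjusted p = 0.403) and 6.24 for miR-291a-3p (SE 2.47, adjusted p = 0.371), fitted on groups with reads at or near 0. None of the 5 passed the threshold.

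The miRNAs whose pattern was most like the cluster were found by Spearman's rho with the summed member level over all 36 libraries, among 768 miRNAs that passed the filter and are not of the cluster. They were miR-3072-3p (rho 0.77), miR-673-5p (0.75), miR-433-3p (0.74), miR-205-5p (0.72) and miR-487b-3p (0.72), while the median rho of the 768 was 0.0071. The libraries differed in age, depth and composition, and among the 12 P1 libraries alone the values of these 5 were between -0.15 and 0.20. miR-202-5p ranked 149, with 0.37, and miR-17-5p 194, with 0.30, and at P1 alone they had 0.44 and -0.38. From the germ cell and gonad list, miR-470-5p and miR-871-3p had 0.59 and 0.47 at P1 alone, but 0.08 and -0.05 over all 36 libraries.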

How the data were processed

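Small RNA libraries were made from Trizol total RNA of kidneys and sequenced on an Illumina HiSeq2000. Per the study's methods, the authors trimmed the adaptor, kept reads longer than 17 bases and aligned them with miRDeep2 to the genome (mm10) and to miRBase 21, and the deposited table holds raw read counts per mature miRNA and hairpin, not normalized. The submitters' processing notes list CASAVA 1.8.2 and HTSeq. Reads that match several near-identical miRNAs may be shared or counted more than once.

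From these counts, the row with the highest total was kept for a mature miRNA listed with several hairpins, giving 1915 rows. Each model was fitted in edgeR 4.0.16 (R 4.3.3) over its 18 libraries, keeping miRNAs with 10 counts in 3 libraries, with TMM and 1 term per group, and differences between models over 36 libraries. The quasi-likelihood test was two-sided, p-values were adjusted by Benjamini-Hochberg over all miRNAs tested, and 0.05 was the threshold. The SE is the log2 fold change divided by the root of F. CPM use the TMM factors of 36 libraries. Ratios have exact conditional intervals (95%). Level likeness used log2 CPM with a prior count of 2. The script was tested on simulated data. DESeq2 1.42.0, other scalings, no filter, fewer groups, a replicate block and leaving out each library were alternatives.

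All 8 members were accounted for, with fold changes named where the unadjusted p was under 0.05 or to complete a count. The members and marker lists were chosen with earlier results of these data known. The 36 sample columns were all used.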

Additional observations from a re-analysis of the deposited data

How the results depend on the processing

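Calls of members in 15 comparisons were recomputed under up to 7 other settings and without each library. Of 237 recomputed counts, 223 stayed within 1.5 times the value given. That value was 0 in every comparison except P1 to P7 over both genotypes for Pkd1, so most of these were counts that stayed at 0. A count that stayed at 0 says little where few or no miRNAs of any kind were called. From P1 to P7 over both genotypes, the 2 members called for Pkd1 became 4 with no filter on low counts, since all 8 were then tested, and 2 to 3 without 1 library. For Pkd2, the count of 0 became 4 with library totals, 4 with no filter, 3 with only the groups compared, 1 with DESeq2 and 0 to 3 without 1 library. Among WT alone the count of 0 became 1 for Pkd1 with library totals or DESeq2, and 1 for Pkd2 with library totals or no filter. Library totals moved the median log2 fold change of all miRNAs to -0.92 and -0.89 over both genotypes and to -0.68 and -0.78 in WT, for Pkd1 and Pkd2. The cause of these changes was not tested. For KO against WT at P3 in Pkd1, 0 to 1 members were called without 1 library, and the other KO comparisons had 0 throughout. The difference between models in the KO effect on miR-292a-3p at P7 ran from -1.45 to 8.23 without 1 library. Its sign turned without Pkd1 P7 WT replicate 3, which held 9 of the 11 reads of miR-292a-3p among the Pkd1 libraries at P7.

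With the replicate number as a block, 1 member (miR-295-3p, adjusted p = 0.0359, edgeR) was called from P1 to P7 for Pkd2, and no other count moved. Same-numbered libraries, WT with KO and P1 with P7, did not deviate together throughout (r over 0.1 in 11 of 30 pairs, range -0.48 to 0.51), so the numbers were not taken to pair the samples.

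Depth limits these results: 5 of 8 members for Pkd1 and 4 for Pkd2 were too rare for a test, and 8 of 12 P7 libraries held no member over 10 reads.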
